A study of Mus musculus with 24 samples.

Results

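The step from the juvenile to the adult heart was examined in ventricles of FVB mice, an inbred laboratory strain, by setting 5-month-old males against 4-week-old animals. It rests on the 6 arrays with these ages in their labels, 3 per group, of 24 arrays in 8 groups, and on 9977 of 12654 probe sets, those that are not controls and do not hold 0 on all 24 arrays. Each array reads total RNA of 1 sample in 1 colour, and each probe set is a group of short probes against 1 transcript whose values are linear signals on the authors' scale. The labels give no genotype, allele or treatment for these groups, so they share strain and tissue and differ in age. For the younger group they give no sex. They do not say whether an array stands for 1 animal or for a pool, and p-values then measure only the spread between these samples, which may be technical.

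The other groups, used here only to place the levels, were E12.5, neonate, 1 week, 3-month female, 1-year female and a 1-year group whose titles carry an m but whose descriptions give no sex (1-year m). On the 6 arrays compared, Xist, the RNA that coats the inactive X chromosome of females, gave 11.9, 18.1 and 23.9 at 4 weeks and 6.7, 31.0 and 47.2 at 5 months, against a mean of 854 in 3-month females. The Y-linked Eif2s3y gave 236.8, 368.4 and 331.9 at 4 weeks and 448.3, 386.6 and 270.5 at 5 months. The Xist values of the younger group lay far below the 3-month female mean, and its Eif2s3y values overlapped those of the males, with array 1 below them.

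In the growing heart, fibroblasts lay down a meshwork of fibrillar collagens, elastic fibres and binding proteins between the myocytes, while endothelial cells and other cells deposit basement membranes rich in type IV collagen. Synthesis of these long-lived proteins is brisk while the ventricle enlarges and slows in the adult, whereas the contractile proteins and mitochondria of the myocytes are made throughout life. Expression in the heart also follows the circadian clock, a feedback loop in which Arntl and Clock drive the Per, Cry and Nr1d genes, whose products act back on Arntl and Clock.

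The defining markers of ventricular myocytes lay above background on all 6 arrays. The 8 measured markers, from the myosin light chains Myl2 and Myl3 to the calcium channel Ryr2, summed to 211602.9, 173989.1 and 214368.2 at 4 weeks and to 168978.7, 205452.8 and 349157.8 at 5 months. The third array of 5 months stood apart. Its 5' CreX control, a spiked-in transcript, gave 65959.1 against 16851.2 to 23151.5 on the other 5 arrays. Its 18S ribosomal RNA control gave 1666.2, and its 3' to 5' actin ratio, a measure of RNA integrity, was 1.549 against 1.122 to 1.355. The 18S signal also differed between the ages compared. It was 352.7, 247.6 and 321.0 at 4 weeks and 447.0 and 637.3 on the other 5-month arrays, so all 5-month values lay above all 4-week ones. This did not hold for every adult group, since the 3-month female arrays gave 461.2, 359.1 and 268.1. The part of 18S in the results was not tested beyond the fits with it as a covariate. Results without the third array of 5 months are given for many of the genes described. With the 18S signal in the fit, 44 of the 84 probe sets called kept their call, and these losses are not marked at every gene. The lists of glycolysis, oxidative phosphorylation and matrix proteases then each went from 1 call to 0. The clock, imprinted and smooth muscle lists each went from 2 calls to 1. The ratio of the BioB to the BioC control lay between 0.396 and 0.589 on the 6 arrays. This is below the gap at 0.698 that separates them from the 3-month arrays and from 1-year m arrays 2 and 3. A background level of 124.6, the 95th percentile of 19 control probe sets for transcripts foreign to the mouse, was exceeded by all but 38.5% of the tested values of the 6 arrays.

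Of 9952 probe sets tested, 84 (0.844%) passed an adjusted p of 0.05 by limma with Benjamini-Hochberg adjustment, 34 (0.342%) higher and 50 (0.502%) lower at 5 months. At an unadjusted p under 0.05 there were 1005. In each of the 84 the 3 signals of one age all lay above the 3 of the other, and 52 differed by more than 1 on the log2 scale. Counted by gene, with the brightest probe set standing for each, 30 of 7406 genes (0.405%) rose and 38 (0.513%) fell, 0.918% in all, around a median difference of -0.03 over all genes. The calls depended on single arrays: 43 of the 84 probe sets were also called without each array in turn, and the count was 53 without 4-week array 2, of which 48 were among the 84. Without array 3 of 5 months, which stood apart, 57 were called, 54 of them among the 84. With the 18S signal in the fit 47 were called, 44 of them among the 84.

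**Figure D1:**
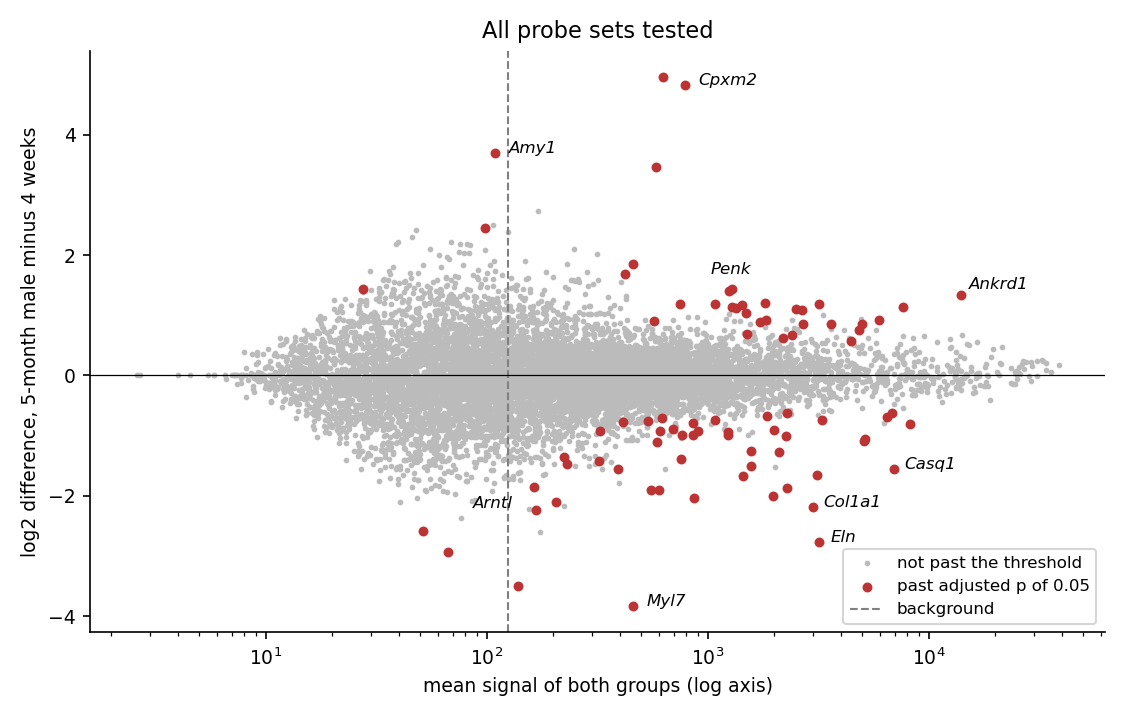
Log2 difference between 5-month males and 4 weeks (vertical axis) against the mean signal of both groups (horizontal log axis) for the 9952 probe sets tested; red points passed an adjusted p of 0.05 and the dashed line is the background of 124.6. The called probe sets reach from -3.83 for Myl7 to 4.96 for a probe set of Cpxm2, and most lie to the right of the background line.

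The fall of collagens was the broadest change among the gene lists. Of 19 collagen genes measured, 10 fell and 0 rose (52.6% called, against 0.918% of all genes), their median difference was -0.89, and in 13 the arrays of the ages did not overlap, all lower at 5 months, against 10.3% of all genes lower in this way. The list and its count describe these samples, since the list was chosen with earlier results known. Omitting single arrays left 8 to 10 calls, with 8 without 4-week array 2, and 7 were called with the 18S signal in the fit. In whole tissue, fewer cells of a type and less RNA per cell cannot be told apart.

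Col1a1, the alpha 1 chain of type I collagen and the main fibrillar collagen of the heart, had signals of 4871.6, 5320.2 and 4497.6 at 4 weeks and of 1086.8, 1065.7 and 1069.1 at 5 months. The adult values lay within a narrow band far below all juvenile ones. It fell by 2.19 ± 0.15 (SE) on the log2 scale, a 4.55-fold difference (adjusted p = 1.08e-09), and its second, dimmer probe set fell by 1.67 ± 0.25. Col1a2, the partner chain of the same triple helix, gave 2100.2, 2674.2 and 2188.8 at 4 weeks and 897.2, 719.0 and 838.1 at 5 months, where it was 2.83-fold lower (adjusted p = 7.75e-07). Col3a1, the fibrillar collagen that assembles with type I, gave 3154.4, 4141.9 and 3383.8 against 992.9, 684.6 and 1314.6, and fell by 1.88 ± 0.25. Its dimmer probe set, which lay at or below 53.8 in adults and hence under background, fell by 3.51 ± 0.52. The chains of type V collagen, which helps start fibrils of type I, also fell: Col5a2 by 1.90 ± 0.24, from 869 ± 84.6 (SD, n = 3) to 238 ± 62.8, and Col5a1 by 0.74 ± 0.14, with 1250.4, 1468.1 and 1321.5 at 4 weeks against 843.0, 844.2 and 726.6 at 5 months.

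As an example of a fibrillar collagen gene that fell, the 250 bases before the start of Col1a2 in the RefSeq promoter table (GRCm38.p6, chr6:4505368-4505617, plus strand, promoter) are shown, with the CCAAT motif that a search of both strands found 109 bases before the start in capitals:
Col1a2: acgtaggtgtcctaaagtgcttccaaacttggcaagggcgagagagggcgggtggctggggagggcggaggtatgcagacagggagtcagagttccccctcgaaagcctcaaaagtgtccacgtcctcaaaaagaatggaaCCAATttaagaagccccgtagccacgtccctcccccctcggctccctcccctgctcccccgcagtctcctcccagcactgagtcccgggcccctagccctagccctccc
CCAAT on either strand stands in 33.8% of 32851 windows of the same length, and no TATAAA, found in 12.4% of windows, was among these letters.

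Collagens of basement membranes and of the microfibrils around cells fell as well. Col4a1, the core chain of basement membranes, gave 6186.6, 7312.6 and 7229.4 at 4 weeks and 2622.9, 3857.4 and 3355.1 at 5 months, and fell by 1.09 ± 0.15. Its partner Col4a2, which lies next to it in the genome and is transcribed in the opposite direction, gave 6987.5, 7321.5 and 6436.0 against 2718.4, 3478.3 and 3870.6, and fell by 1.06 ± 0.14. Of the type VI chains, which form beaded microfibrils, Col6a1 fell by 1.27 ± 0.14 (2918.7, 3435.9 and 2560.3 against 1273.4, 1004.1 and 1444.9). Col6a2 fell by 1.26 ± 0.25 (2237.7, 2426.6 and 1972.7 against 898.1, 964.4 and 901.7), but its adjusted p of 0.00782 was 0.0562 without 4-week array 2. Col6a3 had a difference of -0.59 ± 0.19 that did not pass (adjusted p = 0.18), although its groups did not overlap. Col18a1, the source of endostatin, gave 417.8, 693.2 and 582.3 at 4 weeks and 192.2, 92.3 and 370.1 at 5 months and fell by 1.56 ± 0.35 (adjusted p = 0.0281). That call was lost without 5-month array 1 (0.0747) or 2 (0.194) and without 4-week array 2 (0.155) or 3 (0.11). Of its other 3 probe sets 1 passed, giving 138.9, 118.6 and 102.6 against 13.2, 18.7 and 10.5. It fell by 2.94 ± 0.43 (adjusted p = 2.95e-04) and kept its call without each array, but with nearly all its signals below background it was not called with the floor raised there. Col15a1, another collagen of vessel walls, had a difference of -0.89 ± 0.33 that did not pass (adjusted p = 0.281). The remaining members, among them Col8a1, Col11a1 and Col12a1, did not pass and had differences from -0.53 to 0.26.

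Of 33 other matrix genes, 4 fell and 0 rose (12.1% called, against 0.918% of all genes), with a median of -0.36. Eln, elastin, the rubber-like protein of vessel walls and elastic fibres, had the largest fall among genes kept without any single array: its signals were 5717.6, 5975.7 and 5040.8 at 4 weeks and 767.3, 748.1 and 939.9 at 5 months. It fell by 2.77 ± 0.18 on the log2 scale, or 6.83-fold (adjusted p = 1.08e-09), and a second, dim probe set fell by 1.85 ± 0.34. Sparc, a collagen-binding protein of remodelling tissue, gave 4786.8, 4831.5 and 4488.3 against 1311.7, 1316.7 and 1915.9, and fell by 1.66 ± 0.21. Fn1, fibronectin, to which cells attach through integrins, gave 890.1, 837.4 and 691.5 against 388.5, 400.9 and 328.4, and fell by 1.11 ± 0.17. Postn, periostin, a matricellular protein of active fibroblasts, gave 1113.5, 1328.3 and 851.8 against 500.7, 389.1 and 361.4, and fell by 1.39 ± 0.28 (adjusted p = 0.0111). The Postn call was lost without 5-month array 2 (0.0581) or 3 (0.0872) and without 4-week array 1 (0.0534) or 2 (0.0941).

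The fall did not extend to every matrix gene. Dcn, decorin, a small proteoglycan that coats collagen fibrils, gave 14684.1, 14477.0 and 14250.0 at 4 weeks and 12694.5, 11718.6 and 14280.8 at 5 months. These overlapped, and the difference of -0.17 ± 0.14 did not pass (adjusted p = 0.759). Lum, lumican, of the same family, had a difference of -0.05 ± 0.21, and Mgp, an inhibitor of calcification, one of -0.06 ± 0.18. Bgn, biglycan, did not overlap between the ages (4638.4, 4152.3 and 3868.1 against 2653.2, 3032.8 and 2836.6), but its difference of -0.57 ± 0.15 missed the threshold (adjusted p = 0.0656). The laminin chains of basement membranes did not pass in either direction, with differences from -0.55 for Lamc1, which lay below background on all 6 arrays, to 0.44 for Lama5. These genes were singled out after their values were seen.

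**Figure D2:**
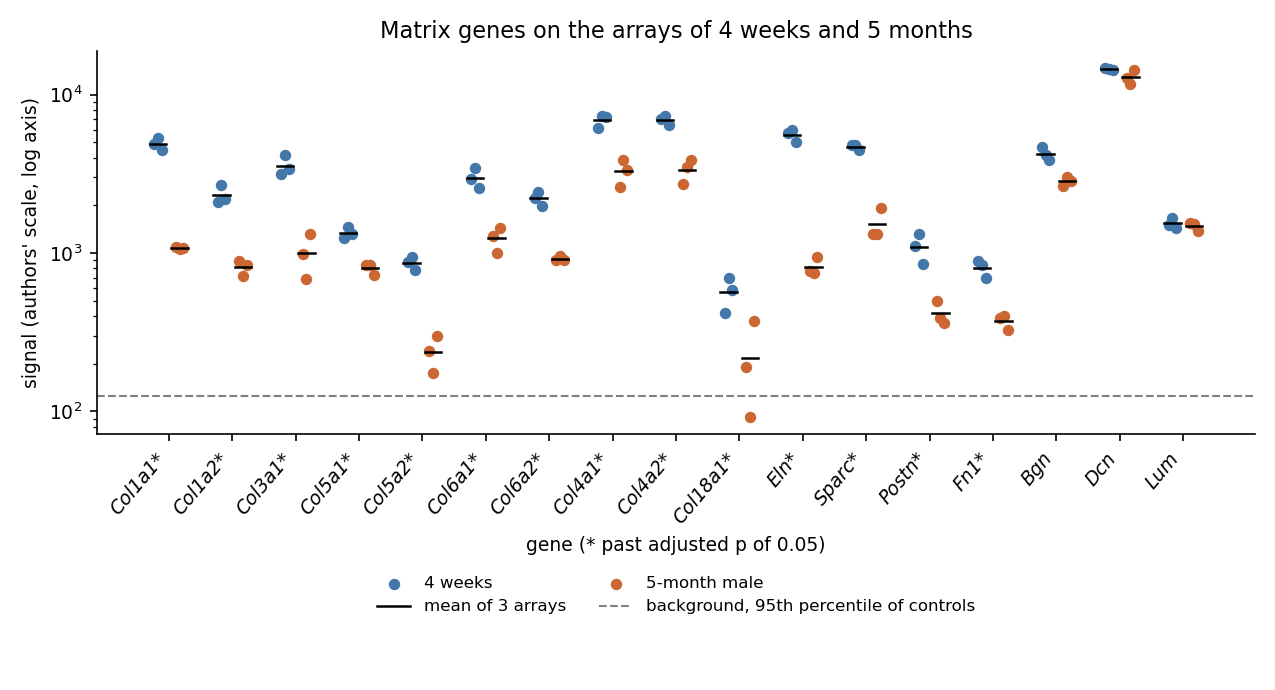
Signal of 17 matrix genes on each array of 4 weeks (blue) and 5 months (orange), on a log axis, with the mean of 3 arrays as a black bar and the background of 124.6 as a dashed line; stars mark genes past an adjusted p of 0.05. The adult points of Col1a1 and Eln all lie far below their own juvenile points, while the points of the ages overlap for Dcn and Lum.

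None of the 10 enzymes and helpers of collagen assembly passed the test (median -0.23). Serpinh1, the collagen chaperone of the endoplasmic reticulum, gave 3456.0, 4453.0 and 3725.7 at 4 weeks and 2731.9, 2385.0 and 2235.4 at 5 months. The ages did not overlap, but its difference of -0.66 ± 0.16 lay just outside the threshold (adjusted p = 0.0512). Pcolce, which aids the trimming of procollagen, had -0.94 ± 0.30 (adjusted p = 0.182), and the lysyl oxidase relative Loxl1 had -1.10 ± 0.38 (0.249). The prolyl hydroxylase chains P4ha1 and P4ha2 had small positive differences that did not pass, 0.38 and 0.14. Among 16 proteases and inhibitors, 1 fell (6.25% called, against 0.918% of all genes), the membrane protease Adam19. It gave 423.4, 545.3 and 436.1 against 203.8, 182.6 and 143.4, and fell by 1.41 ± 0.34 (adjusted p = 0.047). No single array could be omitted without losing the Adam19 call: p was 0.0727, 0.119 and 0.235 without 5-month arrays 1, 2 and 3, and 0.112, 0.193 and 0.114 without 4-week arrays 1, 2 and 3.

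Markers of the cells that make matrix were set beside these falls. Of 13 fibroblast markers, 4 fell (30.8% called, against 0.918% of all genes), and these were the matrix genes Col1a1, Col3a1, Col1a2 and Postn. The other 9 did not pass, among them the fibroblast transcription factor Tcf21 (-0.66 ± 0.21, adjusted p = 0.17), the receptor Pdgfra (-0.34 ± 0.24) and Ddr2, a collagen receptor (-0.58 ± 0.26). The summed signal of the list was 43999.1, 45471.1 and 43715.8 at 4 weeks and 32471.3, 29986.8 and 39249.6 at 5 months, lower on each adult array. This sum holds the called collagens and Postn themselves: the 9 markers that were not called summed to 32759.4, 32006.5 and 32793.8 at 4 weeks and to 28993.7, 27128.4 and 35666.4 at 5 months, with the third adult array above all juvenile ones. No fibroblast marker lay below background on all 6 arrays. Of 15 endothelial markers, all above background on every array, 0 passed (median -0.27), while 8 did not overlap, all lower at 5 months, against 10.3% of all genes. Their sums were 20144.2, 19095.3 and 19608.1 against 15627.9, 17799.4 and 16850.1. The part of these marker levels in the collagen result was not tested.

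Of the 14 collagen and other matrix genes that fell, 13 had a higher mean at 1 week than at 4 weeks, the exception being Sparc. In all 14 the 4-week mean stood above those of the 4 adult groups. For 5-month males this follows from the choice of genes that fell, and the other adult groups are set against the same 4-week arrays. The same counts over all genes are not given here. Col1a1 had a mean of 15471 at 1 week, 4896 at 4 weeks, 689 in 3-month females, 1074 in 5-month males, 862 in 1-year females and 1006 in the 1-year m group. Eln had 20065 at 1 week, 5578 at 4 weeks and, in the 4 adult groups, 839, 818, 746 and 865 in the same order. Sparc differed in shape, with 4496 at 1 week and 4702 at 4 weeks, and 922, 1515, 907 and 1459 in the adult groups.

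**Figure D3:**
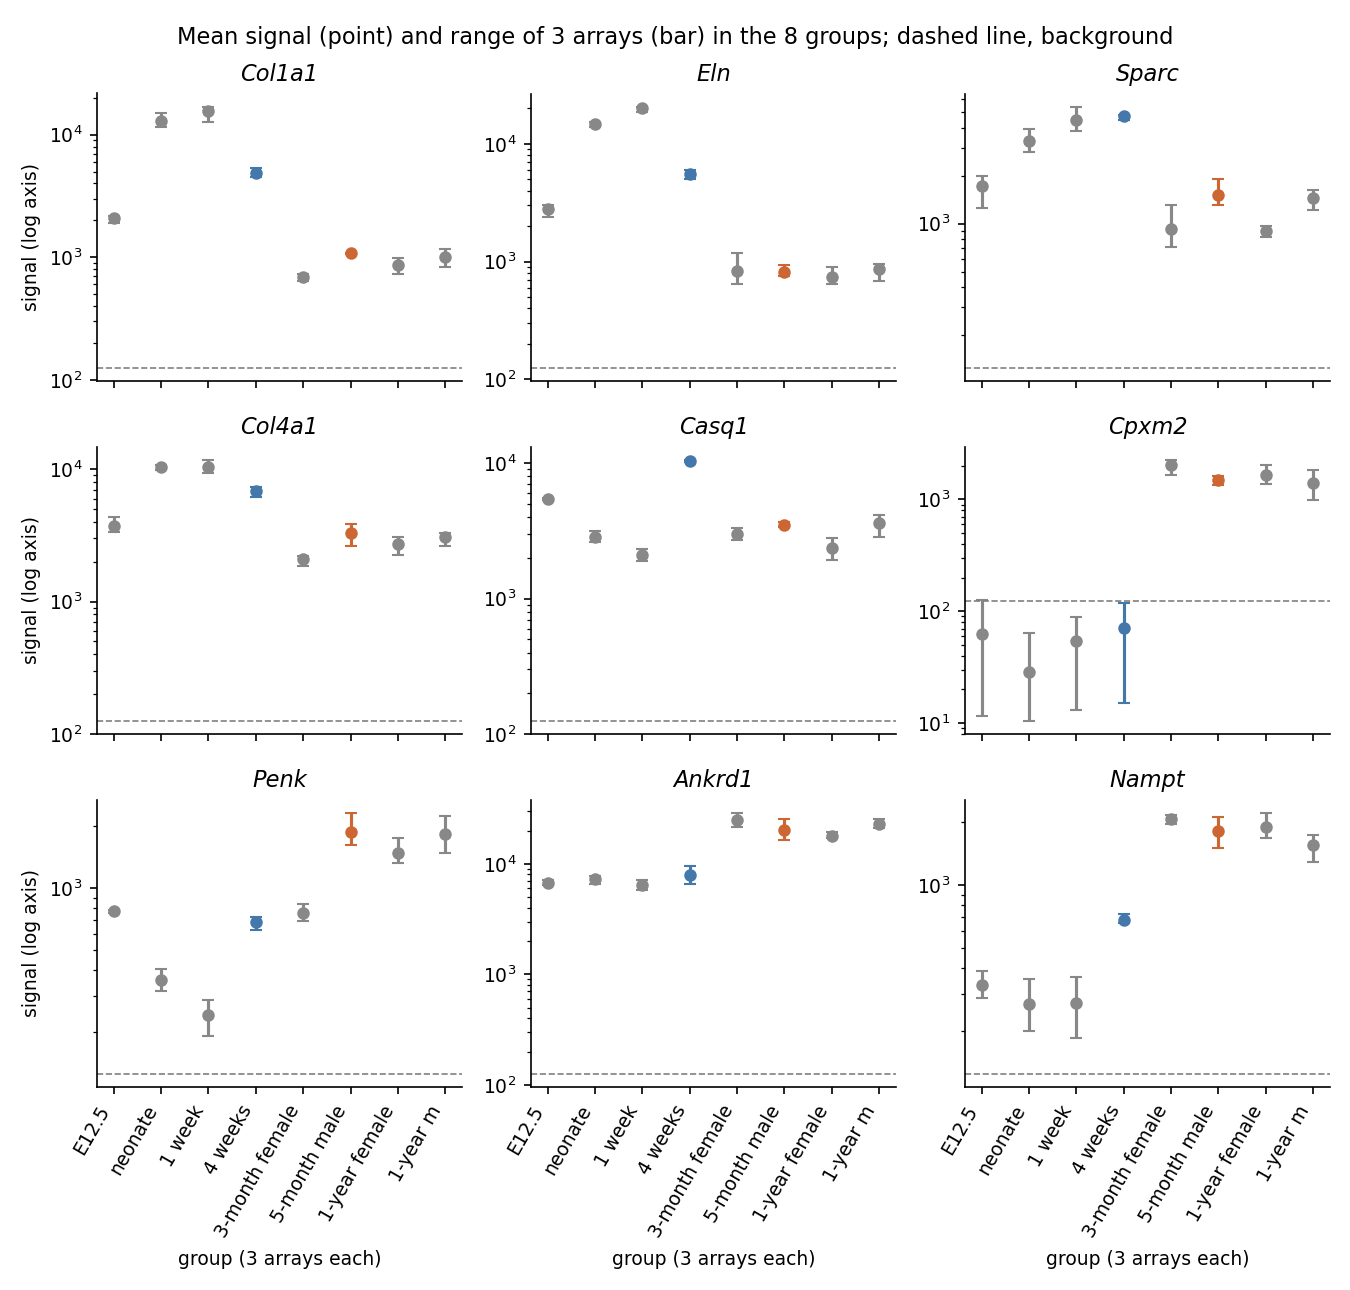
Mean signal (point) and range of the 3 arrays (bar) of 9 genes in the 8 groups, on log axes, with 4 weeks in blue, 5-month males in orange and the background of 124.6 as a dashed line. Col1a1, Eln and Col4a1 descend from 1 week to the adult groups, Casq1 has its peak at 4 weeks, Cpxm2 lies at background up to 4 weeks and at 991.2 or more in adults, and Penk is high in 5-month males and both 1-year groups.

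Some genes of smooth muscle and of the young myocyte fell. Acta2, smooth muscle actin, which is also made by immature myocytes and activated fibroblasts, gave 2833.2, 3105.7 and 3499.6 at 4 weeks and 991.2, 794.7 and 600.8 at 5 months, and fell by 2.01 ± 0.24 (adjusted p = 2.89e-05). Csrp2, a LIM protein of smooth muscle, gave 923.2, 1000.4 and 920.6 against 314.0, 273.3 and 186.6, and fell by 1.91 ± 0.26. Of 8 smooth muscle markers 2 fell (25% called, against 0.918% of all genes), Acta2 and Myl9. The Myl9 call (0.0382) held only without 5-month array 1 (0.00234), with p from 0.0957 to 0.275 without each of the other 5 arrays. Myh11, the smooth muscle myosin, had a positive difference that did not pass (0.78 ± 0.40, adjusted p = 0.532), and Tagln one of -0.19 ± 0.18. Of 15 genes of the fetal cardiac list, 1 rose (Ankrd1), 2 fell (Acta2 and Myl7) and 12 did not pass (20% called, against 0.918% of all genes, median -0.34). Myh7, the myosin heavy chain that is high before birth, gave 5256.6, 3689.2 and 5157.6 at 4 weeks and 9171.8, 11616.2 and 9910.9 at 5 months, without overlap, and its difference of 1.13 ± 0.33 did not pass (adjusted p = 0.132).

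Casq1, the calsequestrin of skeletal muscle, which stores calcium in the sarcoplasmic reticulum, was very even within each age: 10570.0, 10393.6 and 10074.3 at 4 weeks and 3477.0, 3663.1 and 3394.1 at 5 months. It fell by 1.56 ± 0.14 (adjusted p = 3.58e-07). Its mean was 2101 at 1 week and between 2361 and 3626 in the adult groups, so its 4-week arrays stood above those of all other groups. Markers of skeletal muscle did not move with it: 0 of 12 passed, their median was 0.00, and 6, among them the fast myosins Myh1, Myh2 and Myh4, lay below background on all 6 arrays. The cardiac form Casq2 gave 705.0, 882.3 and 965.9 at 4 weeks and 795.3, 887.9 and 1021.8 at 5 months, a difference of 0.09 ± 0.17. Levels of different probe sets are not compared here, so it is not read which form was more abundant.

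Of 5 markers of the atria, 1 fell (20% called, against 0.918% of all genes). Myl7, the atrial myosin light chain, gave 980.3, 699.6 and 877.2 at 4 weeks and 125.3, 43.7 and 38.1 at 5 months, where it was at or near background. It fell by 3.83 ± 0.92 on the log2 scale (adjusted p = 0.0469). With the floor at the background its difference was -2.76, close to the -2.77 of Eln, and did not pass (0.158). The call held without 5-month array 1 (0.0383) and was lost without 5-month array 2 (0.161) or 3 (0.227) and without 4-week array 1 (0.156), 2 (0.115) or 3 (0.132). Over all other settings its adjusted p ranged from 3.09e-06 to 0.242. The call was also lost with the arrays of 4 weeks and later (0.146), without an intensity trend (0.149) and with the 18S covariate (0.242). It was lost too with no filter on low signals and with a pseudocount in place of the floor. Its level varied among adult groups, with means of 1183 in 3-month females, 411 in 1-year females and 2038 in the 1-year m group. Myl4, the other atrial light chain, and Nppa, the atrial natriuretic peptide, did not overlap either, and their differences of -1.79 ± 0.52 (adjusted p = 0.132) and -0.99 ± 0.28 (0.122) did not pass. The summed atrial markers gave 4282.2, 3209.4 and 3598.3 at 4 weeks and 1274.5, 1775.9 and 1577.9 at 5 months. Of the 5 markers, 3 had negative differences, and 2, Sln and Dkk3, had positive ones of at most 0.49 that did not pass.

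The rises had no theme as broad as the collagens, and several were among the surest calls. Cpxm2, a member of the carboxypeptidase family that has lost catalytic activity, gave 118.2, 15.2 and 80.7 at 4 weeks and 1354.4, 1621.5 and 1515.4 at 5 months. The juvenile values were all below background and the adult ones far above it. It rose by 4.83 ± 0.74 (adjusted p = 4.01e-04), and with the floor raised to the background by 3.58, since a fold against such low signals depends on the floor. A second probe set gave 25.4, 33.3 and 69.2 against 1242.3, 1316.9 and 1074.1 and rose by 4.96 ± 0.51. The means of its brighter probe set in the other adult groups were 2025, 1639 and 1414. Amy1, an amylase, gave 13.4, 16.3 and 13.0 against 253.9, 120.6 and 238.6. Its rise of 3.71 ± 0.55 (adjusted p = 2.95e-04) shrank to 0.65 and did not pass (0.256) with the floor at the background, and amylase copies are near-identical, so the probe set may read several of them.

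Penk, the precursor of enkephalin peptides, gave 707.5, 624.3 and 724.2 at 4 weeks and 2324.8, 1683.8 and 1626.4 at 5 months, and rose by 1.44 ± 0.18 (adjusted p = 4.09e-05). Its dim second probe set had 0.84 ± 0.63 and did not pass. Ankrd1, a stress-responsive partner of titin in the sarcomere, gave 7760.7, 6524.3 and 9471.3 against 16573.5, 18507.2 and 25235.6, and rose by 1.34 ± 0.16. Nampt, which makes the precursor of NAD from nicotinamide, gave 725.2, 655.1 and 659.4 against 2108.6, 1504.3 and 1835.2, and rose by 1.41 ± 0.22. All 3 calls were kept without each array in turn.

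Further rises that held without any single array covered varied roles. Tspan4, a tetraspanin of the cell membrane, rose by 1.69 ± 0.26 from 208 ± 82.6 (SD, n = 3) to 636 ± 18.1. Clip1, which binds the growing ends of microtubules, gave 1153.4, 1010.9 and 1131.7 against 2551.1, 2424.3 and 2647.5, a rise of 1.21 ± 0.17. Retreg1, a receptor for autophagy of the endoplasmic reticulum, gave 4540.7, 3959.0 and 5920.0 against 10897.4, 9357.2 and 11046.6, a rise of 1.13 ± 0.18, and Sqstm1, an adaptor that brings cargo to autophagosomes, rose by 0.76 ± 0.13 (3945.2, 3327.7 and 3473.6 against 6033.0, 5954.3 and 6109.3). Ier3, an immediate early gene, rose by 1.13 ± 0.18, and Bckdha, a subunit of the complex that breaks down branched-chain amino acids, by 1.04 ± 0.18. Swi5, a partner in recombination repair, rose by 1.19 ± 0.20 and the actin-binding Ivns1abp by 1.19 ± 0.19. Cebpb, a transcription factor of stress and fat metabolism, rose by 1.17 ± 0.25 (adjusted p = 0.0174), a call lost without 5-month array 2 (0.0583) or 3 (0.129) or 4-week array 2 (0.155).

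Among genes of antigen presentation, 2 of 18 measured rose and 0 fell (11.1% called, against 0.918% of all genes). With the 18S signal in the fit 0 were called and the list median of 0.44 became 0.22, and 0 were called without an intensity trend. In 8 genes the arrays of the ages did not overlap, with the adults higher, against 9.48% of all genes. Cd74, the invariant chain that guides class II molecules of the major histocompatibility complex, gave 903.2, 690.7 and 835.5 at 4 weeks and 1789.7, 1657.9 and 1868.8 at 5 months, and rose by 1.14 ± 0.25 (adjusted p = 0.0207). H2-Aa, a class II chain, gave 439.0, 62.2 and 232.2 against 665.3, 666.2 and 681.3, with a spread among juveniles that was wider than among adults, and rose by 1.86 ± 0.45 (adjusted p = 0.047). Both calls rested on most arrays, since each held only without 4-week array 1 (0.0406 for Cd74 and 0.00264 for H2-Aa). Without 5-month arrays 1, 2 and 3 the adjusted p of Cd74 was 0.0709, 0.0556 and 0.114 and that of H2-Aa 0.124, 0.146 and 0.173, and without 4-week arrays 2 and 3 they were 0.124 and 0.068 for Cd74 and 0.268 and 0.0873 for H2-Aa. The class I genes H2-K1 (0.52 ± 0.20, adjusted p = 0.33), H2-D1 (0.41 ± 0.17) and B2m (0.78 ± 0.36) were higher on each adult array but did not pass. H2-Eb1, another class II chain, had -0.50 ± 0.66.

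Markers of macrophages and lymphocytes were set beside the rises of Cd74 and H2-Aa, and the part of these cells in the rises was not tested. All 13 macrophage markers had negative differences, 0 passed, and their median was -0.60. The complement chains C1qa and C1qc, had -0.57 ± 0.17 (adjusted p = 0.132) and -0.57 ± 0.22, and the lysozyme Lyz2 gave 815.1, 923.4 and 915.6 against 401.3, 431.2 and 513.2 (-0.99 ± 0.31, adjusted p = 0.172). Summed macrophage markers were 9228.1, 9127.2 and 8690.9 at 4 weeks and 5568.1, 6339.5 and 5864.4 at 5 months. Of 9 lymphocyte markers 0 passed, the median was -0.47, and the T cell markers Cd3e, Cd3g, Cd3d, Cd8a and Cd2 lay below background on all 6 arrays. The summed lymphocyte markers were 1573.1, 1474.0 and 1620.7 against 1008.4, 913.2 and 1025.5.

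The clock list held 13 measured genes, of which 1 rose, 1 fell and 11 did not pass (15.4% called, against 0.918% of all genes, median -0.07). Arntl, the activator of the loop, gave 358.6, 383.3 and 256.2 at 4 weeks and 113.8, 70.3 and 54.7 at 5 months, where it lay under background. It fell by 2.11 ± 0.39 (adjusted p = 0.00437), by 1.40 with the floor at the background, and the call held without each array in turn. Nr1d2, a nuclear receptor that represses Arntl, gave 771.5, 629.6 and 572.9 against 1739.6, 1362.8 and 1399.4, and rose by 1.19 ± 0.26 (adjusted p = 0.0222). The Nr1d2 call held only without 4-week array 1 (0.0332), with p of 0.118, 0.0532 and 0.0684 without 5-month arrays 1, 2 and 3 and of 0.0946 and 0.119 without 4-week arrays 2 and 3. Nfil3, a repressor of genes with D-box elements, passed only by its dimmer probe set, which fell by 1.47 ± 0.31 (from 339 ± 98.5 to 123 ± 38.8, adjusted p = 0.015). Its brighter probe set had -0.83 ± 0.43 and overlapped.

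The Per genes, repressors of the loop, did not pass but did not overlap between the ages either. Of the 13 clock genes 4 did not overlap with the adults higher, against 9.48% of all genes. In 2 they did not overlap with the adults lower, against 10.3% of all genes. Per1 gave 352.5, 182.7 and 128.9 at 4 weeks and 587.6, 572.6 and 616.3 at 5 months (1.55 ± 0.38, adjusted p = 0.0549). Per2 gave 29.2, 61.5 and 50.7, all below background, against 200.8, 159.7 and 146.6 (1.90 ± 0.67, adjusted p = 0.269, but 0.43 with the floor at the background), and Per3 gave 450.6, 413.1 and 542.6 against 713.6, 924.1 and 568.6 (0.63 ± 0.20, adjusted p = 0.185). Clock (-0.24 ± 0.31), Cry1 (0.27 ± 0.24), Cry2 (-0.07 ± 0.27) and Nr1d1 (-0.24 ± 0.25), a close relative of Nr1d2, overlapped. The labels give no hour at which tissue was taken, so age and time of day cannot be told apart for these genes.

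The promoter windows of 3 clock genes whose members bear on this pattern are shown, each as the 250 bases before the start from the RefSeq table of GRCm38.p6, with matches on either strand in capitals. Searched were the E-box CACGTG bound by Clock and Arntl, the core AGGTCA of the sites of Nr1d and Ror receptors, and the D-box TTATGNAA bound by Nfil3 and its relatives. Nr1d2 lies at chr14:18239107-18239356 (minus strand) with AGGTCA 77 bases before the start, Nfil3 at chr13:52981040-52981289 (minus strand) with AGGTCA on the reverse strand 12 bases before it, and Per1 at chr11:69098699-69098948 (plus strand, the upstream of 2 windows) with CACGTG 166, AGGTCA on the reverse strand 137 and TTATGNAA 24 bases before it:
Nr1d2: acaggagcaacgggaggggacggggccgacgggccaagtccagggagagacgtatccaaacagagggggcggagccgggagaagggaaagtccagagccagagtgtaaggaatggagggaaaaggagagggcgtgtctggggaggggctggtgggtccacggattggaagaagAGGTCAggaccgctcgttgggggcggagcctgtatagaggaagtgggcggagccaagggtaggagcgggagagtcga
Nfil3: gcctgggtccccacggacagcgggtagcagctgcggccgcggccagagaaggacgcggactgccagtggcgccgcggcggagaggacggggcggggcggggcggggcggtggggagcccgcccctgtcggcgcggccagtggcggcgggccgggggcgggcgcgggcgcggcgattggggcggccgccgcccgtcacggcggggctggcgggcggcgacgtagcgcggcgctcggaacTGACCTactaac
Per1: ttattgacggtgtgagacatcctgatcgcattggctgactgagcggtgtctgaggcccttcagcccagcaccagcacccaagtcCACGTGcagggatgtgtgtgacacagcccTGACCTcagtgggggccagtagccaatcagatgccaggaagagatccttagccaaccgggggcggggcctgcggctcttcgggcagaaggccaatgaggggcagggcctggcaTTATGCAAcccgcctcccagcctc
Of 32851 windows of this length, 14% held AGGTCA, 6.02% CACGTG and 3.07% TTATGNAA. The 2 windows of Arntl and the second window of Per1 held none of these letters.

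**Figure D4:**
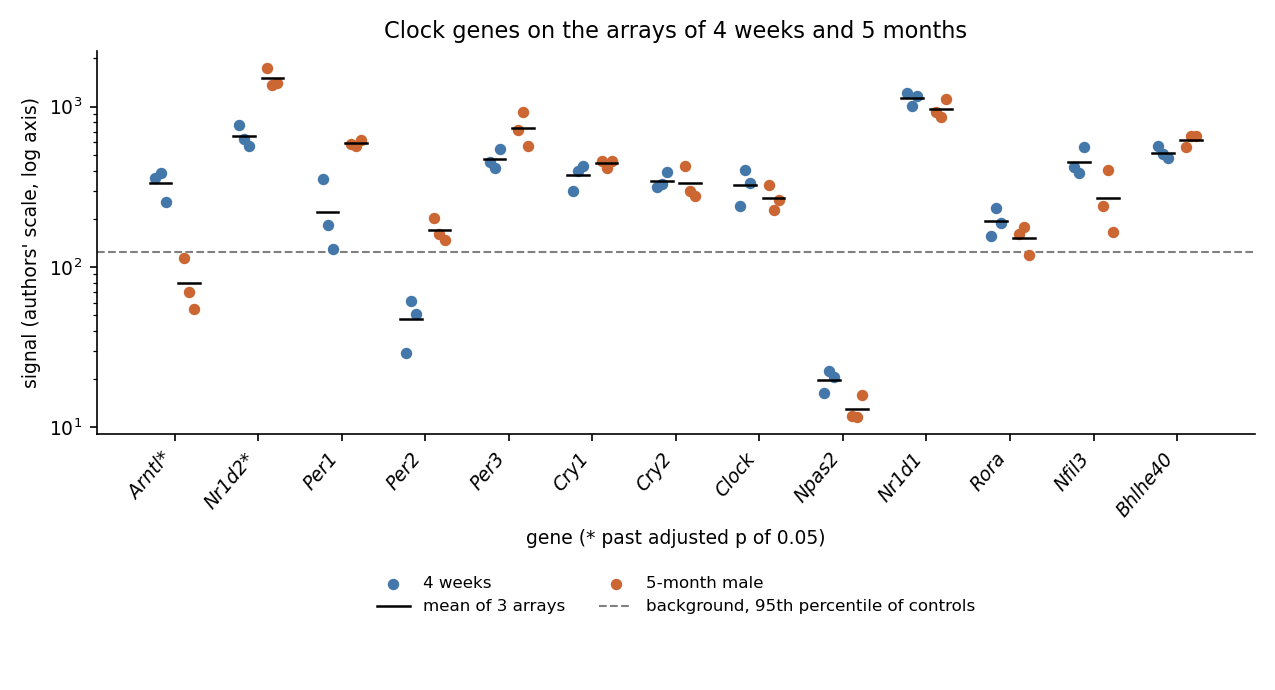
Signal of the 13 measured clock genes on each array of 4 weeks (blue) and 5 months (orange), on a log axis, with the mean of 3 arrays as a black bar and the background of 124.6 as a dashed line; stars mark genes past an adjusted p of 0.05. Arntl lies between 256.2 and 383.3 at 4 weeks and under the background at 5 months, while the adult values of Nr1d2, Per1, Per2 and Per3 all lie above the juvenile ones.

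Few genes of the contractile and metabolic lists of the myocyte were called over the same interval. With 3 arrays a group this does not show that they were unchanged. Myh7, described above, is counted in the fetal cardiac list. Of 16 genes of the adult contractile and calcium handling list, 1 rose (6.25% called, against 0.918% of all genes). All 16 differences were positive with a median of 0.24. That median was 0.01 without 5-month array 3, whose signals for these genes were the highest of all 6 arrays in most cases, 0.10 after quantile normalization and -0.00 with the 18S signal in the fit, so no direction is read from it. The gene that rose was Cacna1c, the pore of the L-type calcium channel, with 1795.6, 1879.1 and 1898.5 at 4 weeks and 2973.8, 3049.2 and 2877.7 at 5 months (0.68 ± 0.14, adjusted p = 0.0111). That call was lost without 5-month array 2 (0.0583) or 4-week array 1 (0.0631) or 2 (0.0509). Myh6, the adult myosin heavy chain, had 0.23 ± 0.22, and Atp2a2, the calcium pump of the sarcoplasmic reticulum, 0.19 ± 0.23.

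Of 26 genes of fatty acid oxidation 0 passed (median 0.19, 23 positive), and the median lay between 0.17 and 0.27 in all alternatives. Among 55 of oxidative phosphorylation 1 fell (1.82% called, against 0.918% of all genes). This was Cox6a1, the form of a cytochrome oxidase subunit found outside muscle, which gave 8558.1, 7700.2 and 8410.8 against 4989.3, 5106.5 and 5936.9 and fell by 0.62 ± 0.14 (adjusted p = 0.0281). Its call held only without 5-month array 3 (0.0301), with p from 0.0583 to 0.141 without each of the other 5. Of 20 genes of the tricarboxylic acid cycle 0 passed, and Idh2 came nearest (0.55 ± 0.14, adjusted p = 0.0656). Hk2, the insulin-sensitive hexokinase of muscle, rose by 0.57 ± 0.14 (adjusted p = 0.047), a call lost without any single array (0.113, 0.086 and 0.235 without 5-month arrays 1, 2 and 3, and 0.184, 0.161 and 0.101 without 4-week arrays 1, 2 and 3). None of 40 cell cycle genes (median -0.16), 28 of DNA replication (0.17) or 17 ribosomal proteins (-0.01) passed.

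**Figure D5:**
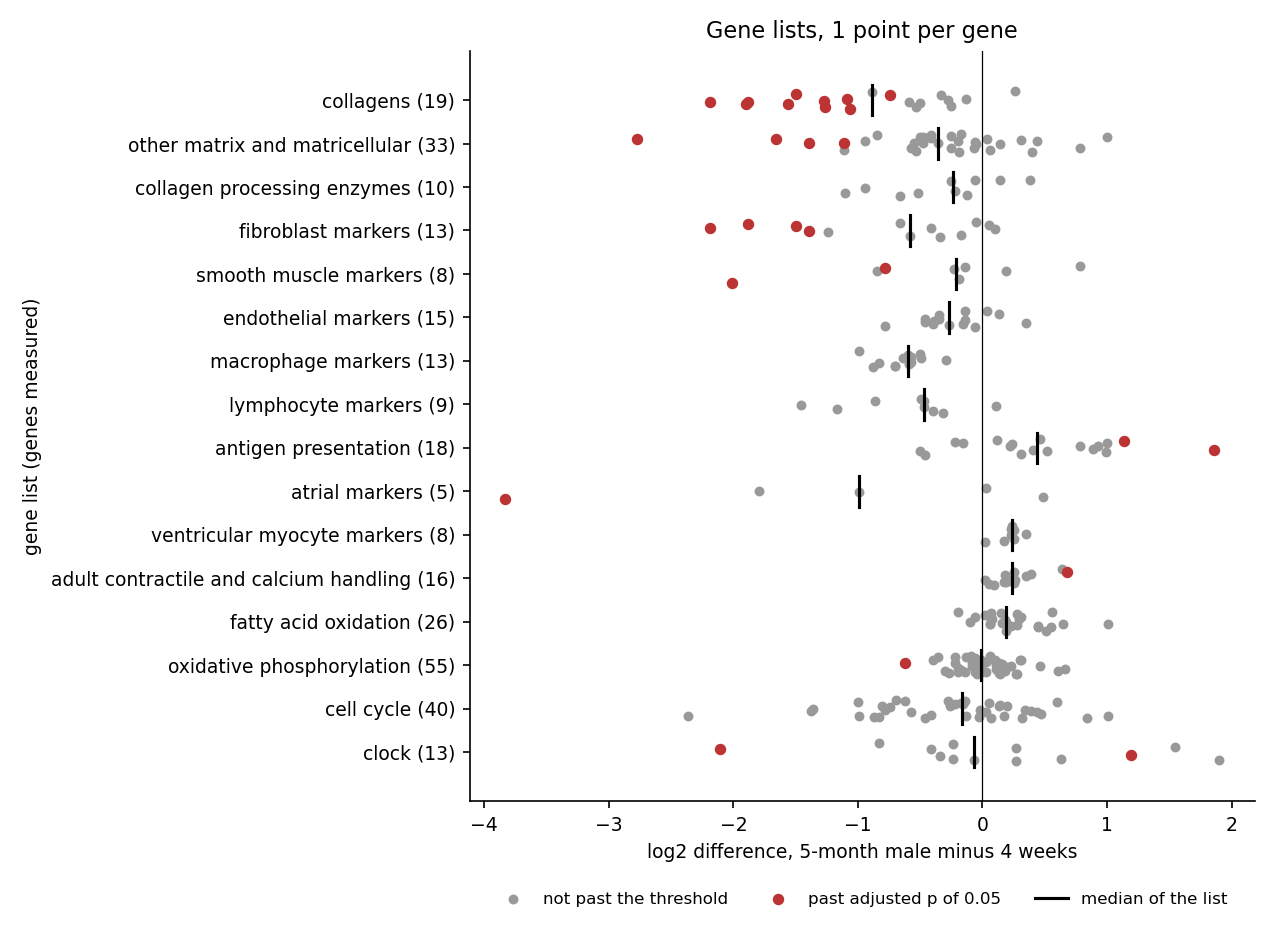
Log2 difference between 5-month males and 4 weeks for each gene of 16 lists, 1 point per gene, with red for genes past an adjusted p of 0.05, a black bar at the median of each list and the number of genes measured in brackets. The collagens have a median of -0.89 and 10 red points, all to the left of 0, while the points of the myocyte and metabolic lists crowd around 0.

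A pair of imprinted growth genes fell, while the lists of growth genes as a whole did not move one way. Igf2, the imprinted fetal growth factor, gave 2301.3, 2472.8 and 2993.0 at 4 weeks and 1547.2, 1375.1 and 1205.5 at 5 months, and fell by 0.91 ± 0.15 (adjusted p = 0.00117). Its mean at 1 week was 13500. Peg3, an imprinted zinc finger gene, fell by 0.93 ± 0.21 (adjusted p = 0.0281) from 426 ± 41.4 to 223 ± 16.4, a call that held only without 4-week array 3 (0.0485), with p from 0.0571 to 0.141 without each of the other 5 arrays. These were 2 of 17 measured genes of the imprinted list (11.8%, against 0.918% of all genes), whose median was -0.02 with 8 positive and 9 negative. Of 36 growth factor and insulin-like signalling genes 0 passed (median -0.12). Tfrc, the transferrin receptor through which cells take up iron, gave 2998.3, 2995.7 and 3065.5 against 1365.0, 1686.6 and 1454.7, and fell by 1.01 ± 0.23 (adjusted p = 0.0283). Its call held only without 5-month array 2 (0.0496), with p from 0.0957 to 0.129 without each of the other 5. Marcksl1, an actin-regulating substrate of protein kinase C, fell by 1.35 ± 0.22 and kept its call without each array. Ptprf, a receptor tyrosine phosphatase, gave 211.6, 226.2 and 371.5 against 112.9, 44.4 and 34.3, all below background, and fell by 2.23 ± 0.46 (adjusted p = 0.0113), or by 1.07 with the floor at the background. Its call was lost without 5-month array 2 (0.0689) or 3 (0.118) or 4-week array 3 (0.105). Tfrc and Marcksl1 were chosen after their values were seen.

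Some called probe sets cannot be tied to 1 gene or disagree within a gene. Among the 73 genes called by any probe set, 20 had several probe sets, and in 2 of these, Hoxa4 and Pim1, another probe set pointed the other way. Of 6 called probe sets without 1 gene symbol in the platform annotation, the one with the largest rise gave 79.8, 73.8 and 148.6 at 4 weeks and 1062.0, 1212.0 and 911.3 at 5 months (3.46 ± 0.54, adjusted p = 4.54e-04). The one with the largest fall gave 1324.2, 1584.9 and 1239.1 against 358.4, 415.3 and 255.5 (-2.03 ± 0.22, adjusted p = 5.70e-06). Both kept their calls without each array.

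The level reached at 5 months was then set against the neighbouring adult groups. Between 5-month males and 3-month females 84 probe sets were called (0.844%), 50 (0.502%) higher and 34 (0.342%) lower in the males, with 1245 at an unadjusted p under 0.05. This comparison mixes age, sex and the BioB to BioC ratio of the arrays, which cannot be told apart, and only 4 probe sets were called with the 6 arrays alone. Without 5-month array 3 there were 25, without 5-month array 2 38, without 5-month array 1 53 and without 3-month array 2 32. Penk was higher in 5-month males by 1.30 ± 0.18 (adjusted p = 3.75e-04), with means of 1878 against 755. Between the 1-year m group and 5-month males 1 probe set was called (0.01%), with 897 at an unadjusted p under 0.05. It read Pold1, the catalytic subunit of DNA polymerase delta, whose mean was 99.7 in the 1-year m group and 340 in 5-month males (adjusted p = 0.00435). Its 1-year m arrays lay between 71.3 and 122.8, all under the background of 124.6. With the 6 arrays of these groups alone, 0 probe sets were called. The BioB to BioC ratio was 0.484, 0.953 and 0.885 on 1-year m arrays 1, 2 and 3, against 0.459, 0.405 and 0.589 at 5 months. Age and this ratio cannot be told apart here either, so the single call does not show that levels stayed the same after 5 months. Without 1-year m array 1, which leaves the arrays with the high ratio, 94 probe sets were called. Without 1-year m array 3 the count was 4, and without 5-month array 1 it was 3.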

How the data were processed

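The authors deposited 1 table of linear signals (intensity) for 24 single-channel arrays, which they had already scaled: per the deposited values, the mean trimmed by 2% over probe sets not at 0 lay between 500.44 and 500.6 on each array. The software behind it is not given in the sources used here. Signals under 14.2, the 25th percentile of the table, were raised to that value before taking log2. Probe sets above that floor on at least 3 arrays were kept, which left out 25 and tested 9952. limma 3.58.1 in R 4.3.3 fitted 1 mean per group over all 8 groups (lmFit, then eBayes with the prior variance trended on intensity; 16 residual and, at the median, 7.58 prior degrees of freedom), with two-sided p-values adjusted by Benjamini-Hochberg over all probe sets at 0.05. Errors on the log2 scale are standard errors of that fit, and other errors are SDs over 3 arrays. Precision is limited by having 3 arrays a group.

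A gene was represented by its probe set of highest mean signal among the 8724 with exactly 1 symbol (346 had several, 907 none). Symbols were updated by Entrez ID through RefSeq of GRCm38.p6, where 8710 matched. No probe position was computed. Promoter windows were found for 57 of the 73 called genes.

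Named were the 15 largest rises and 15 largest falls past the threshold without overlap and above background, skipping clone names, then up to 4 called members of each list, or the 2 brightest where none was called, and the marker and sex-linked genes. Not all list members named by this rule are described, and other names were chosen after their values were seen. The members and the 45 gene lists were chosen with earlier results of these data known. Lists are described by counts and medians with no set test.

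The fit was tested on simulated data before use. Alternatives covered the groups fitted, normalization, floor, filter, variance model, RNA integrity, 18S signal and each array left out.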

Additional observations from a re-analysis of the deposited data

Results flagged for a closer look

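In 5 of the 68 genes called between 5 months and 4 weeks, the level in 5-month males also differed from that in 3-month females. Over all probe sets 0.844% were called between these adult groups. This comparison is the test of whether the change from 4 weeks differed between them. Both comparisons use the same 5-month arrays, so choosing genes by the first favours calls in the second. Penk stood out, with an adjusted p of 3.75e-04 (1.30 ± 0.18 higher in 5-month males on the log2 scale), and was kept in 16 of 17 alternatives, the exception being the fit of the 6 arrays alone (0.0847). The tyrosine phosphatase Ptpn9 was lower in 5-month males by 0.90 ± 0.18 (adjusted p = 0.012, kept in 14 of 17). Its call against 4 weeks (-0.75 ± 0.18, adjusted p = 0.0382) was itself lost without any single array, with p from 0.0659 to 0.205. Marcksl1 was lower by 1.04 ± 0.22 (adjusted p = 0.0256, kept in 8 of 17). Col1a1 was higher in 5-month males by 0.64 ± 0.15 (adjusted p = 0.0403, kept in 6 of 17), and its second probe set had 0.03 ± 0.25 (0.984). Col4a1 was higher by 0.63 ± 0.15 (adjusted p = 0.0492, kept in 4 of 17). Age, sex and the BioB to BioC ratio differ together between these groups and cannot be told apart.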

How the results depend on the processing

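No paired analysis was possible because no label ties a sample of one age to a sample of another. Against 84 probe sets called between 5 months and 4 weeks, 54 were called without an intensity trend, 164 with array weights and 47 with the 18S signal as a covariate, and 53 to 76 with 1 array left out. The share of higher calls moved with the groups fitted: it was 34 higher and 50 lower in the fit of all arrays, 42 and 36 with the 6 arrays alone, and 46 and 40 with the arrays of 4 weeks and later. Over all lists 30 of 703 genes were called, beside 68 of all 7406 genes tested (0.918%), and the lists were chosen with earlier results known. The count of 30 became 16 without an intensity trend, 18 with the 18S covariate and 16 to 24 with 1 array left out. Between 5-month males and 3-month females, 84 became 4 with the 6 arrays alone, 36 without an intensity trend, 39 with the actin ratio and 31 with the 18S signal as covariates, and 25 to 70 with 1 array left out. The alternative with a low BioB to BioC ratio gives no value there, since no 3-month array has one. Between the 1-year m group and 5-month males, 1 became 0 with the 6 arrays alone or with the arrays of 4 weeks and later, 11 with a low ratio (which leaves 1 array of the 1-year m group, assumed to vary like the others), 4 with the floor at background, 2 with array weights, and 1 to 94 with 1 array left out. The cause of these shifts was not tested. For the 68 genes called between 5 months and 4 weeks, 1019 of the values under alternatives kept direction and call, 272 kept direction only, and 0 reversed. Signals under 124.6 are not told from background, which limits the folds of Cpxm2, Amy1, Arntl, Ptprf, Per2 and Myl7. The same limit holds for Pold1 in the 1-year m group.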
